A study of Mus musculus with 16 samples.

Results

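The 16 RNA-seq libraries of cortical parvalbumin (PV) interneurons differed widely in how many reads fell on olfactory and vomeronasal receptor genes, and the libraries at the extremes of that measure were set against each other. Of the 16 libraries, 6 held more than 1500 CPM (counts scaled to a common library total) summed over 1448 autosomal protein-coding receptor genes, and 5 held less than 500 CPM. On the high side were eGFP replicates 1, 2, 3 and 4 together with replicates 1 and 3 of eGFP-GluA2. On the low side were eGFP replicates 7, 8 and 9 together with replicates 6 and 7 of eGFP-GluA2. The remaining 5 libraries lay between the thresholds and are called middle libraries. Libraries were chosen by these measured values, so the difference in receptor reads was fixed by the choice. Every other difference between high and low comes from the same table of counts and is given as a description of size, with the number of genes called as a scale and not as evidence.

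All mice were adults carrying PV-Cre, which directs Cre recombinase to cells that use the parvalbumin gene, together with a transgene that Cre switches on. In the eGFP group (PV-Cre;lsl-eGFP) the transgene made green fluorescent protein alone, and in the eGFP-GluA2 group (PV-Cre;lsl-eGFP-GluA2) it made that protein joined to the AMPA receptor subunit GluA2. Per the labels, both groups shared digestion with pronase, fixation for 15 min in 4% paraformaldehyde, sorting of nucleated fluorescent cells, release of RNA with proteinase K and polyA selection. The animals were 113.1 ± 11.6 days old over the whole study. Age, sex, litter and preparation day per library are not given in the sources used here, and libraries are labelled as biological replicates of a genotype. High and low libraries were therefore compared with genotype as a covariate, over 6 libraries against 5.

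PV interneurons are the fast-spiking inhibitory cells of the cortex and depend on dense mitochondria, GABA synthesis and rapid sodium and potassium channels. Olfactory and vomeronasal receptors are G protein-coupled receptors of sensory neurons in the nose, where each neuron uses a very small part of the repertoire. Cortical interneurons are not a known site of most of these genes, nor of the beta-defensins, keratin-associated proteins and antigen receptor segments considered below.

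Total counts ran from 7454165 to 10960661 in the high libraries and from 13175003 to 15462544 in the low libraries, so every high library was shallower than every low one. The deposited normalized table gave 1.36 to 1.49 recovered reads per deposited count in the high libraries and 1.12 to 1.27 in the low ones. In 2 high libraries transcripts of both sexes stood above 10 CPM. The eGFP replicate 2 library held 268 CPM of Xist, the RNA of the inactive X chromosome, with 17.6 CPM over the Y-linked genes Ddx3y, Uty, Kdm5d and Eif2s3y. The eGFP replicate 3 library held 27.7 CPM of Xist with 176 CPM over those Y-linked genes. Over the whole series 8 libraries had more than 100 CPM of Y-linked transcripts, of which 3 were high, 3 low and 2 middle. Gria2, which encodes GluA2, was between 475 and 729 CPM in the 9 eGFP libraries and between 796 and 1109 CPM in the 7 eGFP-GluA2 libraries, so the genotypes did not overlap.

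Receptor reads separated the libraries as follows, as a description with no test. Among eGFP libraries the sums were 2782, 1909, 3304 and 4142 CPM in replicates 1 to 4, then 1144 and 675 CPM in the middle replicates 5 and 6. They were 102, 162 and 99.4 CPM in replicates 7, 8 and 9. Among eGFP-GluA2 libraries the high replicates 1 and 3 had 3846 and 2870 CPM, the middle replicates 2, 4 and 5 had 1276, 781 and 845 CPM, and the low replicates 6 and 7 had 82.4 and 88.8 CPM. The libraries nearest the upper threshold were eGFP replicate 2 inside it and eGFP-GluA2 replicate 2 outside it. The libraries nearest the lower one were eGFP replicate 8 inside and eGFP replicate 6 outside. High libraries averaged 3142 ± 806 CPM (SD, n = 6) and low ones 107 ± 31.7 CPM (SD, n = 5), a ratio of 29.4. Nearly the whole repertoire contributed, since 1398 to 1415 of the 1448 genes had a read in each high library against 209 to 643 in each low one. In the authors' deposited TPM values, a separate quantification, the same genes summed to 2637 to 5822 TPM in high and 925 to 1428 TPM in low libraries, a ratio of 4.26.

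**Figure D1:**
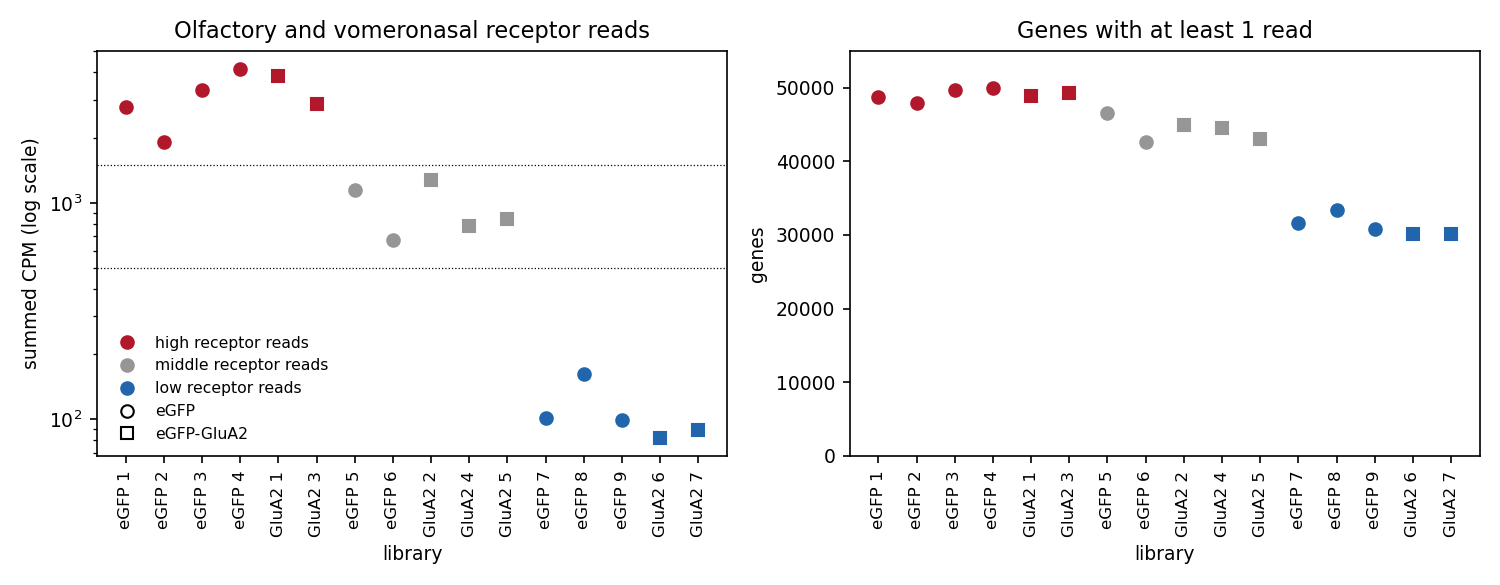
Summed CPM of the 1448 receptor genes (left, log scale, dotted lines at the thresholds of 1500 and 500 CPM) and number of genes with at least 1 read (right) in each of the 16 libraries. Each point is a library, circles are eGFP and squares eGFP-GluA2 (labelled GluA2), and the 6 high libraries detected 47975 to 49971 genes against 30087 to 33334 in the 5 low ones.

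More genes were detected in the high libraries in spite of their lower depth. A read was found for 49084 ± 723 genes (SD, n = 6) in high and 31180 ± 1359 genes (SD, n = 5) in low libraries, of 54532 in the table. With every library thinned to 7454165 counts the ranges were 46680 to 49551 and 27548 to 30430 genes. With at least 5 reads asked for they were 37632 to 42836 and 21828 to 22591 genes. Among protein-coding genes 21243 to 21402 had a read in the high libraries, against 16577 to 18057 in the low ones. High and low libraries did not overlap in any of these counts, and the middle libraries, with 42552 to 46496 genes detected, lay between.

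Families of genes with no role in common all had more reads in the high libraries. Read density, which is summed CPM divided by summed exon length in kb and so can be compared between genes, was 0.638 ± 0.159 CPM per kb for olfactory receptors in high libraries against 0.021 in low ones. For vomeronasal receptors it was 0.475 against 0.017 CPM per kb. Beta-defensins, antimicrobial peptides of epithelia, stood at 1.59 against 0.017 CPM per kb. Keratin-associated proteins, which build hair, stood at 1.17 against 0.042 CPM per kb. Late cornified envelope and small proline-rich proteins, which belong to the outer skin, had 1.16 against 0.015 CPM per kb. The prolactin-like and pregnancy-specific glycoprotein families of the placenta had 1.05 against 0.038 CPM per kb. The variable segments of immunoglobulins and T cell receptors, which lymphocytes rearrange, had 1.10 against 0.028 CPM per kb.

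Taste receptors, with 1.18 against 0.318 CPM per kb, and keratins, with 2.30 against 0.790, were higher than the others in the low libraries and showed a smaller ratio. For olfactory and vomeronasal receptors the separation was fixed by the choice of libraries. Across the other 8 families, counted on autosomes, the difference of high minus low lay between 0.859 and 1.57 CPM per kb. Their ratio of high to low lay between 2.92 and 94.8. In each of these 8 high and low libraries did not overlap, and the mean of the middle libraries lay between them. The X-linked germline families treated below are not among the 8 and had 0.846 against 0.077 CPM per kb, a difference of 0.769. Receptor genes annotated with 1 exon (181 genes) had 0.587 CPM per kb in high libraries, and those with several exons (1267 genes) had 0.585.

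**Figure D2:**
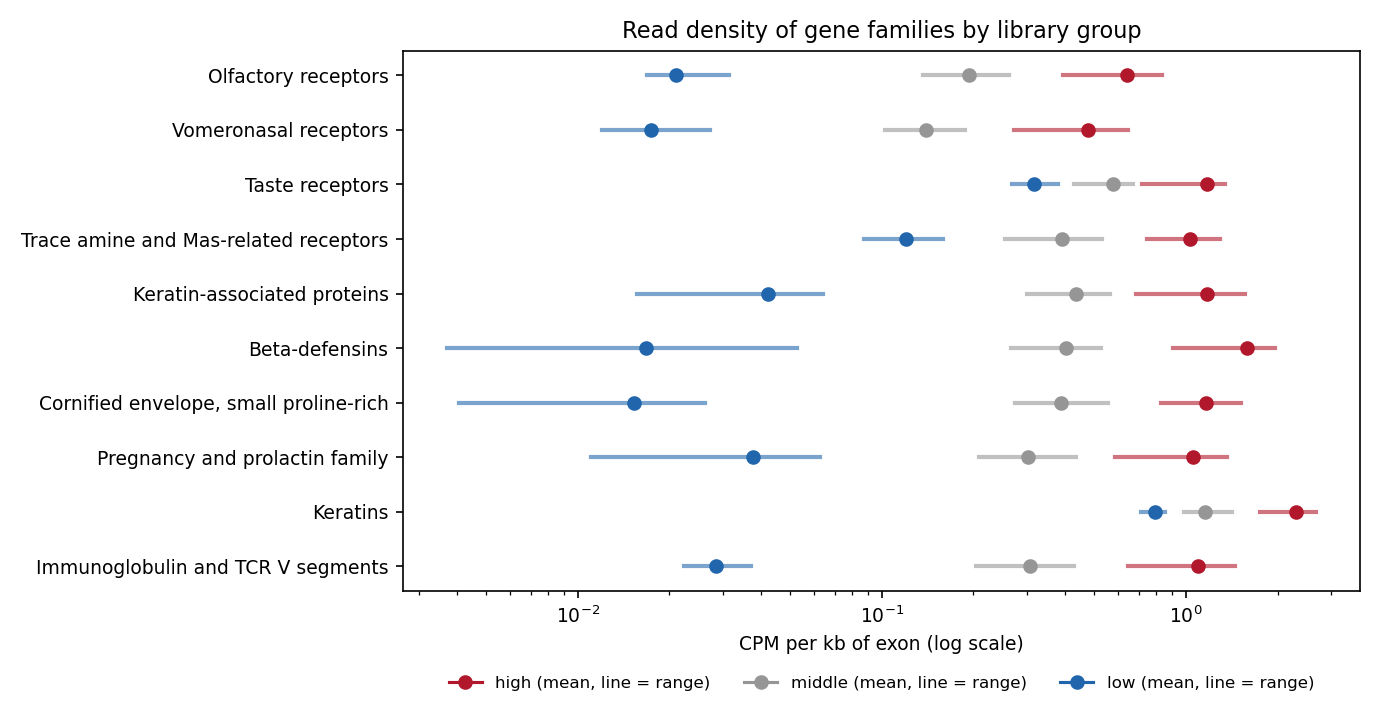
Read density in CPM per kb of exon (log scale) for 10 gene families in the high (n = 6), middle (n = 5) and low (n = 5) libraries. Points are means and lines run from the lowest to the highest library. For the families other than olfactory and vomeronasal receptors the high libraries have means of 1.03 to 2.30 CPM per kb. The low libraries have means of 0.015 to 0.790 CPM per kb, and keratins are highest in both.

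Length and base composition were examined in 2473 protein-coding genes outside the receptor families that averaged under 0.05 CPM in the low libraries. This set was defined by the low libraries, so its low level there is a matter of choice. In the high libraries these nearly silent genes had 1.16 ± 0.282 CPM per kb (SD, n = 6). Their median CPM went from 0.781 in the shortest of 5 equal length classes (24 to 803 bp of exon) to 3.50 in the longest (2473 to 20803 bp). Per kb the density was 1.64 in the shortest class and 1.24, 1.25, 1.19 and 1.02 in the others, so reads grew with exon length, somewhat less than in proportion. Across these genes, which are not independent replicates, Spearman's rho between exon length and CPM was 0.66. Density also differed with GC content, from 0.729 CPM per kb in the lowest of 5 equal GC classes (at most 41.5%) to 1.68 CPM per kb in the highest (52.9% or more), with a rho of 0.50 across genes. Receptor genes, at 0.585 CPM per kb, lay below the lowest of these GC classes.

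Most annotation classes other than protein-coding genes were also denser in the high libraries. Processed pseudogenes, reverse-transcribed copies of messenger RNAs, had 1.42 CPM per kb in high and 0.469 in low libraries, and unprocessed pseudogenes had 0.880 and 0.258. Antisense genes had 2.25 against 1.15 CPM per kb, and genes listed as to be experimentally tested (TEC) had 2.34 against 1.45, with overlap between the groups. Long intergenic noncoding RNAs had 7.22 against 5.18 CPM per kb and overlapped as well. Protein-coding genes as a whole had 8.97 against 9.39 CPM per kb, and their share of all counts was 85.9% to 89.98% in high and 90.8% to 92.0% in low libraries. If every annotated exon carried reads at the receptor density of its own library, these reads would make up 4.63% to 10.04% of counts in the high libraries and 0.200% to 0.392% in the low ones. The nearly silent genes were denser in the high libraries (1.16 CPM per kb) than the receptors, so these shares are no upper limit.

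Processed pseudogenes were then split by their place. Those outside protein-coding genes had 1.25 against 0.286 CPM per kb, and those inside a protein-coding gene of under 1 CPM in the middle libraries had 1.23 against 0.348. Those inside a protein-coding gene of 20 CPM or more had 3.56 against 2.13 CPM per kb. The absolute difference was 0.964 CPM per kb outside genes and 1.43 inside genes of 20 CPM or more, where reads from introns of the host gene cannot be told apart from reads of the pseudogene. Pseudogenes share sequence with their parent genes, so their assignment is uncertain. The single transcript Gm10800, which has near-identical copies, took 6.65% to 10.9% of counts in high libraries and 0.0478% to 7.11% in low ones, and its fitted log2 difference of 0.97 ± 0.82 did not pass edgeR's test (adjusted p = 0.306).

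Receptor genes on the X chromosome, which the choice of libraries did not use, followed the sex-linked transcripts in the high and middle libraries. The 9 receptor genes on X were set against the autosomal receptors of the same library as a ratio of read densities. In the high libraries with Xist and few Y-linked reads the ratio was 1.25 in eGFP replicate 1 (196 counts, exact 95% Poisson interval 1.08 to 1.43). It was 1.19 in eGFP replicate 2 (165 counts, 1.02 to 1.39) and 1.17 in eGFP-GluA2 replicate 1 (222 counts, 1.02 to 1.33). In the high libraries with more than 100 CPM of Y-linked transcripts it was 0.698 in eGFP replicate 3 (153 counts, 0.592 to 0.818), 0.65 in eGFP replicate 4 (163 counts) and 0.752 in eGFP-GluA2 replicate 3 (130 counts). The 5 middle libraries split in the same way, with 1.10 to 1.16 in 3 libraries and 0.599 to 0.724 in the 2 with more than 100 CPM of Y-linked transcripts.

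Among high and middle libraries the 2 sets did not overlap in this ratio. A set of 80 X-linked germline genes, from families expressed mainly in the testis, had ratios of 1.77 to 2.33 in the 6 high and middle libraries with under 100 CPM of Y-linked transcripts and 1.01 to 1.31 in the 5 with more. In the low libraries the order of the ratios was the other way round. There the germline ratios were 3.71 to 5.64 in the 3 libraries with more than 100 CPM of Y-linked transcripts and 2.60 to 3.49 in the other 2, on 90 to 139 counts a library. Xist and the Y-linked genes were used to sort these libraries, and the receptor and germline genes were not. In the low libraries the 9 receptor genes on X held 0 to 2 counts each, too few for a ratio to be read. Intervals cover counting error only.

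**Figure D3:**
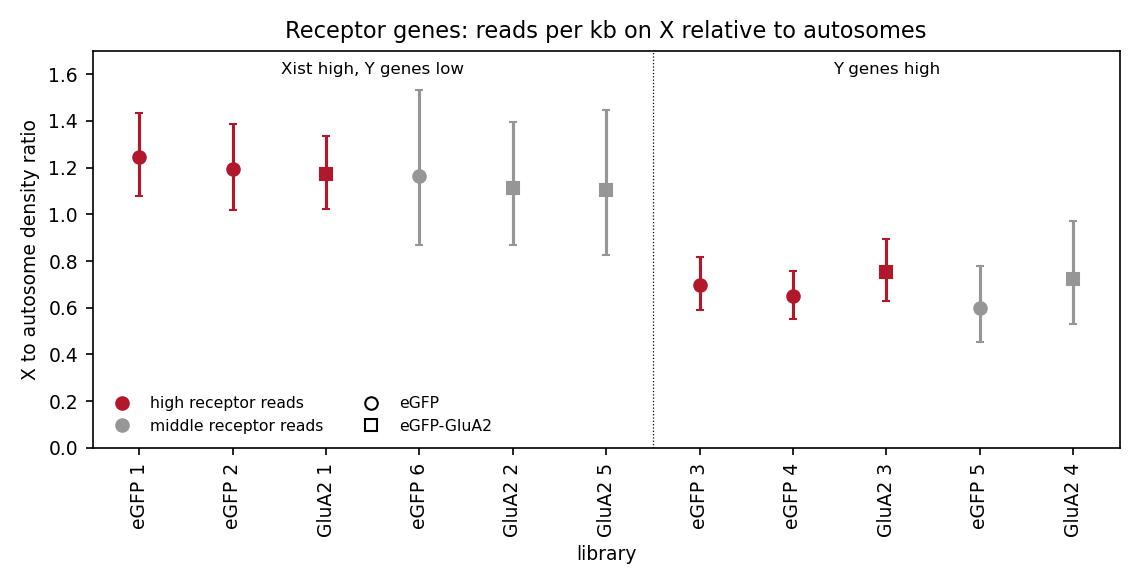
Read density of 9 X-linked receptor genes divided by that of the autosomal receptor genes in the 6 high (red) and 5 middle (grey) libraries, with exact 95% Poisson intervals for counting error. The 6 libraries with Xist and few Y-linked reads have ratios of 1.10 to 1.25, and the 5 libraries with over 100 CPM of Y-linked transcripts have 0.599 to 0.752.

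Across genes, 30710 passed the filter on low counts, and edgeR's quasi-likelihood test with Benjamini-Hochberg adjustment called 24267 of them at 0.05. Of those tested, 54.3% (16675 genes) were called higher in the high libraries and 24.7% (7592 genes) lower. The CPM of high and low libraries did not overlap for 52.8% of tested genes on the higher side and for 8.22% on the lower side. Nothing about any single gene can be read from such counts, since the libraries were selected on this table. Of the tested genes 11993 had fewer than 10 reads in more than 2 of the 5 low libraries. They passed the filter mainly through the high libraries, which favours genes that differ. The median log2 difference over all tested genes was 0.68 with TMM scaling and 1.11 with library totals. With totals the calls were 85.2% higher and 14.8% lower, against 68.7% and 31.3% with TMM. For 20253 of the 24267 called genes (83.5%) the mean CPM of the middle libraries lay between the means of high and low. Of the receptors themselves 980 passed the filter and 468 did not, and 21 had no read in any of the 11 libraries.

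The direction of the difference varied with the level of a gene. Protein-coding genes were ordered by their mean CPM in the middle libraries, which belong to neither side. In the lowest eighth (0.073 to 0.874 CPM) the median log2 difference of high against low was 5.43, and it was 4.57, 2.87, 0.75, −0.16, −0.38 and −0.54 in the next 6. In the highest eighth (over 81.4 CPM) it was −0.71. The filter bears on these values, since 2392 of 2411 genes in the lowest class had 10 reads in fewer than 3 of the 5 low libraries. So did 2114 of 2411, 1269 of 2410 and 219 of 2411 genes in the next 3 classes. Such genes passed mainly through the high libraries, which favours genes that differ, so the medians of the lowest classes reflect how genes passed and support nothing. With library totals the medians of the first 2 classes below 0, −0.16 and −0.38, became 0.26 and 0.04, and that of the highest class was −0.30. In absolute terms, over the same filtered genes, the median differences were 0.987, 1.24, 1.39 and 1.21 CPM per kb in the lowest 4 classes. The next 2 classes had 0.604 and 0.074 CPM per kb, and the highest 2 had −0.924 and −4.23.

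**Figure D4:**
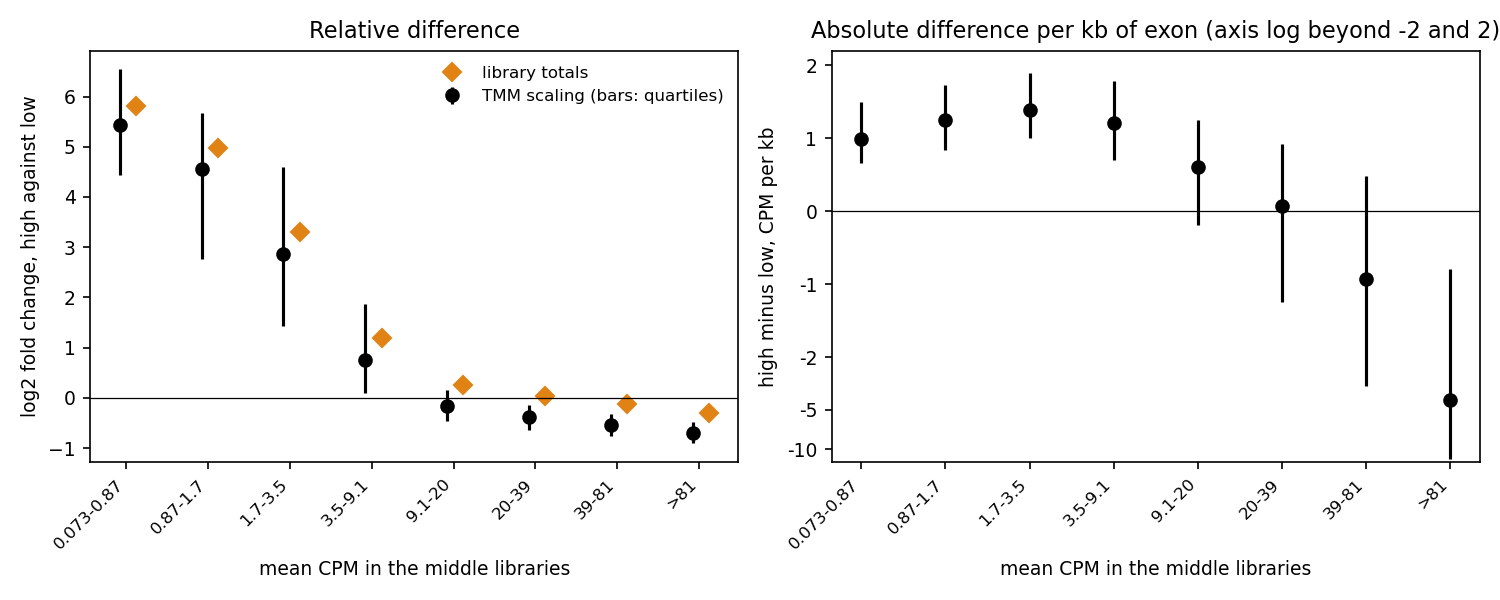
Protein-coding genes in 8 equal classes of mean CPM in the middle libraries (horizontal axis, CPM). The left panel gives the median log2 difference of high against low libraries with TMM scaling (black, bars from the lower to the upper quartile) and with library totals (orange), falling from 5.43 to −0.71 with TMM, and the right panel gives the median difference in CPM per kb with quartiles, on an axis linear between −2 and 2 and logarithmic beyond, 0.987 to 1.39 in the lowest 4 classes and −4.23 in the highest. Most genes of the lowest 3 classes passed the filter on low counts mainly through the high libraries.

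Among protein-coding genes past a cutoff on average level, the largest differences on the higher side were in long genes. These genes are known mainly for roles outside cortical interneurons. The genes named here come from those with the largest log2 difference at an average log2 CPM of at least 4 and without overlap between the groups. They were far lower in the low libraries and reached that average through the high ones. Their large differences, and in part their length, therefore follow from the cutoff and support nothing. Zan, the sperm protein zonadhesin, went from 0.129, 0.226, 0.372, 0.531 and 0.715 CPM in the low libraries to a lowest, median and highest value of 21.7, 40.4 and 48.7 CPM in the high ones. Its log2 difference was 6.18 ± 0.23 (SE). Sspo, a secreted protein of the brain's subcommissural organ, had a log2 difference of 4.72. Hydin and Dnah2, components of motile cilia, had 4.15 and 3.91. Cdh23, a cadherin of inner ear hair cells, had 3.49.

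The matrix genes Col27a1, Hmcn1 and Hspg2 had log2 differences of 4.49, 3.96 and 3.12, and Mroh2a had 3.61. Per kb of exon the absolute difference was 1.94 CPM for Zan, 2.75 for Sspo and 1.45 for Hmcn1. It was 6.99 CPM per kb for Mroh2a, above these. Exons of Zan, Hydin, Hmcn1 and Dnah2 overlap another annotated gene, and whether counting used strand is not given.

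The genes of PV interneurons were lower in the high libraries. Pvalb, which encodes the calcium buffer parvalbumin (ENSMUSG00000005716, GRCm38 chr15:78191114-78206400, minus strand), was at 313, 319, 320, 369 and 396 CPM in the low libraries. In the high libraries its lowest, median and highest values were 115, 179 and 238 CPM, and in the middle libraries it ran from 223 to 326 CPM. No high library reached the lowest of the low ones. The log2 difference was −1.34 ± 0.18 (SE, edgeR adjusted p = 3.06e-07) with TMM scaling and −0.96 with library totals, and it was −1.38 in eGFP and −1.40 in eGFP-GluA2 libraries alone. Without eGFP replicate 2, which had the highest value of the high group, the high mean went from 176 to 164 CPM. Only 19 of 7292 protein-coding genes of 20 CPM or more in the middle libraries (0.261%) had a lower log2 difference than Pvalb. Lower values were the rule among them, with 5974 called lower (81.9%) and 140 higher and a median of −0.55 (−0.13 with totals). Pvalb is short, with 1041 bp of exon. The shortest of 5 equal length classes of these genes (383 to 3331 bp) had a median of −0.81.

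Of 28 PV identity genes 27 were called lower and none higher, with a median log2 difference of −0.91. The same values were 24.7% called lower and a median of 0.68 over all genes tested, and 81.9% and −0.55 over the protein-coding genes of 20 CPM or more. With library totals the median was −0.51. Their summed level was 11923 to 15895 CPM in high and 19375 to 21280 CPM in low libraries, without overlap. Gad1, which encodes the main GABA-synthesizing enzyme, was at 1359, 1675 and 2286 CPM (lowest, median, highest) in high and 2762 to 3025 CPM in low libraries, a log2 difference of −1.10. Ppargc1a, a coactivator of mitochondrial genes, had −0.93. Syt2, the calcium sensor of fast transmitter release, had −1.29. Lhx6, a transcription factor of the lineage, had −0.56 with TMM and −0.14 with totals, and its high and low libraries overlapped. CPM is a share of the library total, so it also falls when other genes gain reads. In sorted bulk samples such a gain, fewer PV cells and less RNA per PV cell cannot be told apart.

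General neuronal genes were lower as well, to be read beside the 81.9% of expressed protein-coding genes and 24.7% of all genes tested that were called lower. Of 20 pan-neuronal cytoskeleton and synapse genes 19 were called lower, with a median of −0.93, among them Snap25 of the vesicle fusion machinery (−1.21) and Tubb3, a neuronal tubulin (−1.24). Of 20 long neuronal adhesion and scaffold genes 17 were lower and 1 higher, with a smaller median of −0.59. Of 9 voltage-gated sodium channel genes 6 were lower and 1 higher, a share of lower calls under that of expressed genes. Scn1a and Scn8a, genes of pore-forming subunits, had −0.95 and −0.90.

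Exon length went with the size of the difference among expressed genes. In the 7292 genes of 20 CPM or more the median log2 difference was −0.81 in the shortest of 5 equal length classes (383 to 3331 bp) and −0.59, −0.52, −0.43 and −0.41 in the longer classes, the last starting at 9190 bp. Spearman's rho across these genes was 0.39. The call was lower for 1377 of 1459 genes in the shortest class and for 1060 of 1458 in the longest.

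Genes of energy metabolism and translation, many of them short, were lower throughout, as were 1377 of 1459 expressed genes in the shortest length class, 81.9% of all expressed genes and 24.7% of all genes tested. All 36 nuclear oxidative phosphorylation genes were called lower, with a median of −1.10 with TMM and −0.71 with totals, and 32 of them without overlap. Their summed level was 3650 to 5903 CPM in high and 6656 to 7801 CPM in low libraries. Ndufb5, a subunit of complex I, was at 61.5, 71.2 and 75.9 CPM (lowest, median, highest) in high and at 103 to 117 CPM in low libraries, a log2 difference of −1.04. Atp5b, the catalytic subunit of ATP synthase, had −1.20. All 15 glycolysis genes were lower, with a median of −1.10, among them Pkm (pyruvate kinase, −1.14) and Pgk1 (phosphoglycerate kinase, −1.24). All 40 cytosolic ribosomal protein genes were lower, with a median of −0.93 with TMM and −0.54 with totals. Rpl3 of the large subunit ran from 102 to 143 CPM in high and from 153 to 173 CPM in low libraries.

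The named genes of largest difference on the lower side fell in these groups for the most part. After 3 mitochondrially encoded genes came Ndufa1 (−1.51), Rpl29 (−1.49), Ndufc2 (−1.43), Vstm2l (−1.43), Gnas (−1.42), Ndufa4 and Cox6a1 (both −1.41). Gnas encodes the stimulatory G protein alpha subunit, and Rpl29 is a ribosomal protein. The others except Vstm2l belong to the respiratory chain.

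Mitochondrially encoded transcripts varied more among the high libraries than any other list examined here. The 13 protein genes summed to 5520 to 6008 CPM in the low libraries and 4318 to 5138 CPM in the middle ones. In the high libraries they summed to 268 to 5442 CPM, the highest being eGFP replicate 2. Without that library the high range was 268 to 2380 CPM, and the mean went from 1858 to 1141 CPM, over 1.5 times lower. Of the 13 genes 9 were called lower and 4 were not called, with a median log2 difference of −2.02. The share called lower was 24.7% over all genes tested and 81.9% over protein-coding genes of 20 CPM or more. mt-Co1, a subunit of cytochrome c oxidase, was at 140, 633 and 2771 CPM (lowest, median, highest) in high and 3279 to 3703 CPM in low libraries, a log2 difference of −2.36 ± 0.79 (SE, edgeR adjusted p = 0.022). mt-Cytb had −2.02 with an adjusted p of 0.041 by edgeR. Leaving out eGFP-GluA2 replicate 1 or 3 ended the call of mt-Co1. The call of mt-Cytb ended without any 1 of 9 of the 11 libraries, the exceptions being eGFP replicates 1 and 2.

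**Figure D5:**
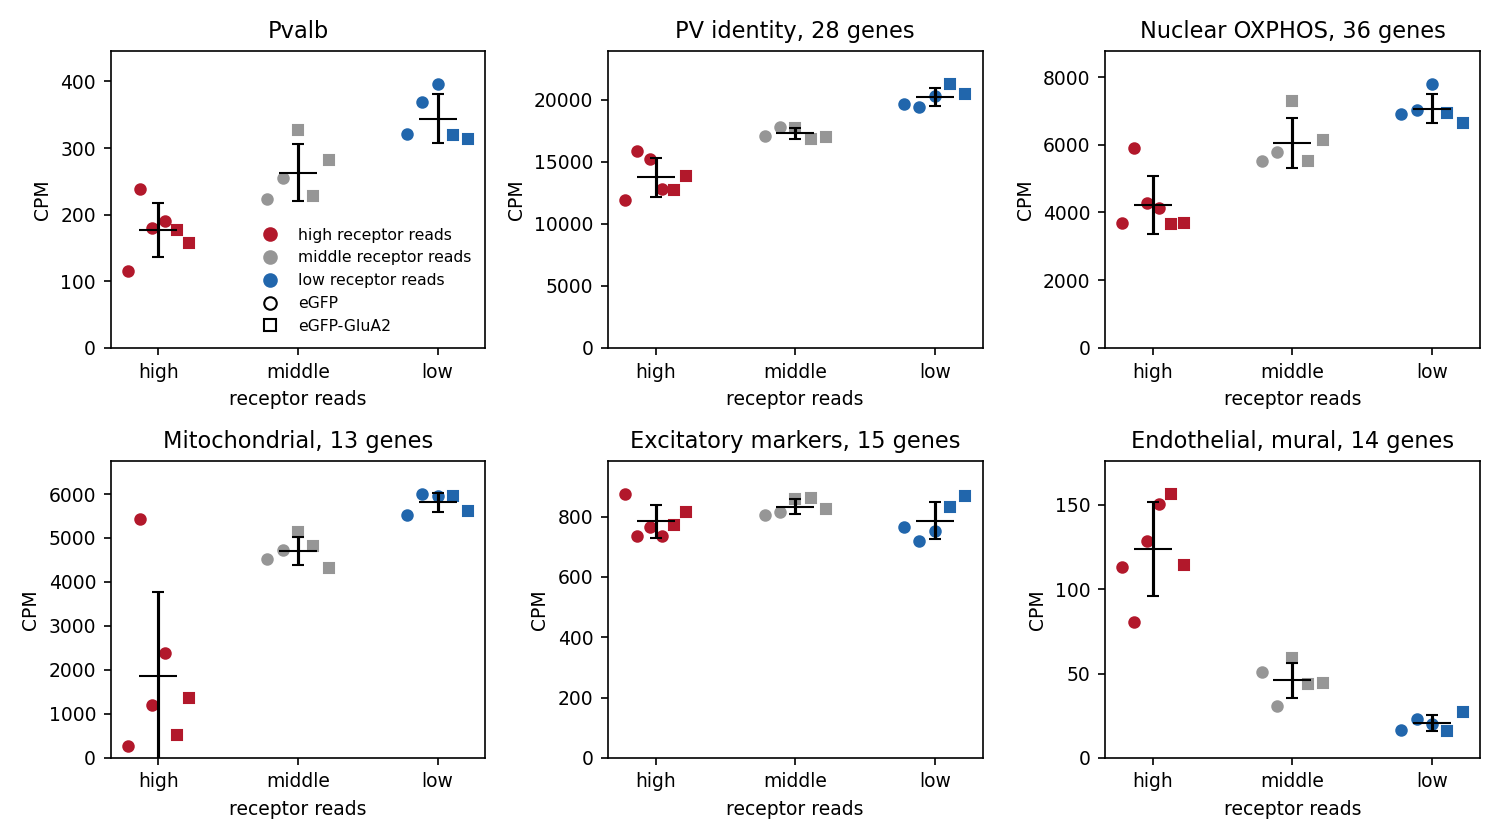
CPM of Pvalb and summed CPM of 5 gene lists in the high (n = 6), middle (n = 5) and low (n = 5) libraries. Each point is a library (circles eGFP, squares eGFP-GluA2), black bars are mean ± SD (drawn to 0 at the lowest), and high libraries lie below low ones for Pvalb, the PV identity, oxidative phosphorylation and mitochondrial lists, overlap them for excitatory markers and lie above them for endothelial and mural markers.

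Markers of other cell types did not move as a block, and their counts stand beside 54.3% of all tested genes called higher and 24.7% called lower. Excitatory neuron markers summed to 736 to 876 CPM in high and 720 to 867 CPM in low libraries, and of 15 genes 8 were called higher and 6 lower, a share of higher calls near that of all tested genes. Among those called higher was Slc17a6, a vesicular glutamate transporter mainly of subcortical neurons (5.82 to 8.59 against 1.06 to 2.13 CPM). Slc17a7, the transporter of cortical excitatory cells, ran from 23.4 to 52.5 CPM in high and from 27.2 to 60.0 CPM in low libraries, with a log2 difference of −0.66. Other interneuron markers summed to 302 to 359 against 319 to 362 CPM, with 7 of 12 genes higher, again near that share, and 4 lower. Chat, which encodes the acetylcholine-synthesizing enzyme, was at 0 in 2 low libraries and at most 0.302 CPM in the others, and at 4.93 to 12.9 CPM in the high ones, 1.87 CPM per kb more. Vip, a neuropeptide gene, had 3.63 to 5.29 against 0.323 to 0.906 CPM. Chat, Vip, Slc17a6, Slc17a7, Syt2 and Lhx6, and Slc4a1, Hba-a1 and Gm10800 elsewhere in the text, were chosen after their values were seen.

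Of 14 endothelial and mural markers 13 were called higher. Their median difference was 2.24, beside 0.68 over all genes tested, a set not matched to them in level. In the eGFP-GluA2 libraries alone their median was 2.05, beside 2.28 for other interneuron markers. They summed to 80.7 to 157 CPM in high, 31.0 to 59.5 in middle and 16.2 to 27.4 CPM in low libraries. Flt1, a receptor for vascular endothelial growth factor, was at 12.9, 22.3 and 27.5 CPM (lowest, median, highest) in high and 1.93 to 4.40 CPM in low libraries. Per kb of exon the list as a whole stood at 1.71 against 0.285 CPM, a difference of 1.43, beside 1.15 for the nearly silent genes. Protein-coding genes of 0.874 to 9.10 CPM in the middle libraries (level classes 2, 3 and 4) had median log2 differences of 4.57, 2.87 and 0.75. Per kb their median differences were 1.24, 1.39 and 1.21 CPM. The filter bears on the log2 medians of classes 2 and 3, as stated above. Whether the list exceeded genes of like level was not tested. On log2(TPM + 0.5) the list's median was 0.93, beside 0.53 over all genes tested. Microglia markers summed to 58.6 to 74.2 against 32.3 to 41.2 CPM, with 9 of 12 genes higher and 1 lower.

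Oligodendrocyte markers (8 of 14 higher, 1 lower) and astrocyte markers (7 of 12 higher, 3 lower) overlapped in their sums, at 147 to 198 against 88.7 to 167 CPM and 187 to 281 against 220 to 306 CPM. Their shares of higher calls were also near the 54.3% of all tested genes. The most abundant of them were not higher, with Mbp of myelin at −0.58 and the glutamate transporter gene Slc1a2 at −1.07 on the log2 scale. Of 7 erythroid genes 5 passed the filter and 2 were called higher, among them Slc4a1 of the red cell membrane (5.63). The globin genes Hbb-bs and Hba-a1 had −1.07 ± 0.60 and −0.98 ± 0.56 (SE, edgeR adjusted p = 0.123 and 0.127). The part of other cells in the differences between high and low libraries was not tested.

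Stress genes gave a mixed result. Of 20 heat shock and immediate early genes 5 were called higher, 7 lower and 8 neither. Over all genes tested 54.3% were called higher and 24.7% lower, so the share of higher calls was under the general one. Over protein-coding genes of 20 CPM or more 1.92% were called higher and 81.9% lower, so it was above the share there. The list holds both abundant and scarce genes, and neither share is matched to it. Hspa8, a constitutive chaperone, had −0.94, whereas Atf3, a transcription factor induced by injury, was at 2.19 to 7.38 CPM in high and 0.151 to 1.16 CPM in low libraries, a log2 difference of 2.61. Hspb1, a small heat shock protein, had 2.66. Per kb of exon these higher genes gained 1.93 CPM (Atf3) and 2.50 CPM (Hspb1), beside 1.15 CPM for the nearly silent genes. Both were named as the 2 members of smallest p in the list, so they are extremes of it. The level classes in the middle libraries that hold Atf3 and Hspb1 had median differences of 1.39 and 1.24 CPM per kb. Induction by stress was not tested.

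The choice of libraries had not used genotype, and the difference between high and low was tested for a dependence on it. With 4 high and 3 low eGFP libraries and 2 high and 2 low eGFP-GluA2 libraries, edgeR's interaction test called none of the 30710 genes (0%) at an adjusted p of 0.05. Without adjustment 1241 genes (4.04%) had a p under 0.05, and DESeq2 called 4. The smallest adjusted p was 0.100, for Eps8, which encodes an actin-capping and bundling protein. Eps8 was at 20.1, 23.7, 26.3 and 27.6 CPM in high and 11.6, 11.7 and 13.1 CPM in low eGFP libraries. In eGFP-GluA2 libraries it was at 26.6 and 31.3 CPM in high and 32.4 and 34.7 CPM in low ones, an interaction of −1.26 ± 0.21 (SE) on the log2 scale. Trim43b followed with 2.94 ± 0.51 (SE, edgeR adjusted p = 0.101). For Pvalb the interaction was −0.02 ± 0.38 and for Gria2 −0.24 ± 0.27. Among 23831 called genes that could be fitted in both genotypes, 23806 (99.9%) had the same sign in each, a share that the common choice of libraries helps to set. A p that misses the threshold does not show that the genotypes were alike, and leaving out single libraries gave 0 to 11 interaction calls. In simulated data the interaction test called only 16% of genes changed 2-fold and 41% of those changed 4-fold, so it misses many real differences.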

How the data were processed

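Raw counts for 54532 genes were deposited as whole numbers, per the file headers with a column for each library. The series' design text names bcbio-nextgen 1.2.3, STAR alignment to GRCm38, gene quantification by Sailfish and DESeq2 as the authors' tools. The maker of the count table and its use of strand are not given in the sources used here. TPM values, scaled by transcript length, were deposited as a separate quantification. The deposited normalized table holds signal values, which are counts over a library's size factor. It also holds the authors' log2 fold change, a test statistic (a score) and p-values, and these were not used. Within a tolerance of 0.001, 100% of the signal values came out as whole reads, and a count test on the recovered reads called 19252 of 25978 genes.

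GENCODE M21 (GRCm38) gave names for 54495 identifiers and none for 37. Coordinates are 1-based. CPM is a count scaled to the library total. High and low libraries were compared with edgeR 4.0.16 (TMM, filterByExpr by group, robust quasi-likelihood F test, genotype as covariate) in R 4.3.3, tested on simulated data. A gene is called at a Benjamini-Hochberg adjusted p under 0.05 over all genes tested, and tested genes held 99.5% of counts. Standard errors come from the F statistic. Alternatives used DESeq2 1.42.0 and limma 3.58.1, the latter on log2(TPM + 0.5) and log2(TPM + 0.1). Depth was 7454165 to 15462544 counts per library. P-values measure the spread between libraries labelled as biological replicates.

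The libraries, the gene lists and the gene families were chosen with earlier results of these data known. The level, length and base composition classes, the nearly silent genes and the cutoffs of 20 CPM for expressed genes and 100 CPM for Y-linked genes were set after the data were seen. Receptor symbols were matched as Olfr, Vmn1r or Vmn2r followed by a number, with or without further letters, a pattern settled after the data were seen. Named genes were Pvalb and Gria2, up to 10 protein-coding genes per direction with the largest log2 difference (average log2 CPM of at least 4, no overlap), the 2 most abundant members of each list, the 2 members of smallest p of each list of interest, and the 2 interaction genes of smallest p. Sex-linked genes and members named as chosen later were added. Some genes that the rule selects are not reported here.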

Additional observations from a re-analysis of the deposited data

Results flagged for a closer look

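In 93 groups of libraries (each measure in the high, middle or low libraries), 7 held a library farther from the rest than Dixon's 95% limit allows, which chance does in about 1 of 20 groups. Among the low libraries, eGFP replicate 8 had 162 CPM of receptor reads, the others having 82.4 to 102 CPM. The share of counts that its receptor density would give over all exons was 0.392%, which restates the same reads. Among the high libraries, eGFP replicate 2 stood apart 4 times. Its ribosomal protein genes summed to 2360 CPM, its nuclear oxidative phosphorylation genes to 5903 CPM, its glycolysis genes to 7262 CPM and its microglia markers to 58.6 CPM. The first 3 were the highest of the high group and the last the lowest, and this library also had the fewest receptor reads of that group. Among the low libraries, eGFP replicate 9 had the highest sum of glycolysis genes, at 8985 CPM.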

How the results depend on the processing

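No paired analysis was possible because high and low libraries of a genotype share no replicate number. Pvalb remained lower and past the threshold in all 26 alternatives, at −1.50 to −0.96. The count of called genes was 40399 without the filter and 15642 among protein-coding genes alone, fewer genes being tested in the latter. It was 21196 to 25413 leaving out single libraries, 24632 without eGFP replicate 2 and 21450 without eGFP replicate 3. The interaction count was 2 with upper-quartile factors, 9 without the filter, 4 with DESeq2, 3 on recovered reads, and 2 and 4 on log2(TPM + 0.5) and log2(TPM + 0.1). It was 0 with RLE factors, with library totals, with the filter on middle libraries and among protein-coding genes. It was 2, 8, 3, 1 and 3 without eGFP replicates 1, 2, 7, 8 and 9, and 2, 3 and 11 without eGFP-GluA2 replicates 3, 6 and 7. Without eGFP replicate 3 or 4 or eGFP-GluA2 replicate 1 it was 0. Where an arm kept 1 library, that library is assumed to vary like the others.

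Medians of gene lists moved with scaling. With library totals they were −0.51 (PV identity), −0.55 (pan-neuronal), −0.18 (long neuronal), −0.49 (sodium channels), −0.54 (ribosomal), −0.71 (oxidative phosphorylation), −0.72 (glycolysis), 0.80 (excitatory), 2.37 (other interneurons), 1.32 (astrocyte), 1.58 (oligodendrocyte), 1.64 (microglia) and 2.68 (endothelial and mural). With upper-quartile factors they were −0.69 (PV identity), −0.37 (long neuronal), −0.67 (sodium channels), −0.71 (ribosomal), −0.88 (oxidative phosphorylation), −0.89 (glycolysis) and 0.60 (excitatory). On log2(TPM + 0.5) they were −0.39 (long neuronal), −0.50 (sodium channels), 0.14 (excitatory), 0.67 (other interneurons), 0.35 (astrocyte), 0.51 (oligodendrocyte), 0.32 (microglia) and 0.93 (endothelial and mural). In eGFP-GluA2 libraries alone they were −1.10 (PV identity), −1.12 (sodium channels), −1.38 (glycolysis), 0.13 (excitatory), 2.28 (other interneurons) and 0.58 (astrocyte), and the stress genes had −0.07 against 0.24. Sodium channels had −0.94 with RLE factors and −0.81 in eGFP libraries alone. The difference in detected genes, 17904, was 19922 at equal depth.

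Cux2 reversed to 0.071 with library totals, Reln to 0.0502 on log2(TPM + 0.5) and 0.0517 on log2(TPM + 0.1), and Csf1r to −0.30 on recovered reads and −0.12 and −0.15 on the TPM scales. The cause was not tested. Named genes that lost their call in some alternative included mt-Cytb (11), Cux2 (6), Slc1a2 (4), mt-Co1 (3), mt-Co3 (2), Reln (2) and, once each, Csf1r, Fgf14, Mbp, Rpl29 and mt-Nd3. The mean of the high libraries without eGFP replicate 2 was added after seeing the data. The 5 low libraries held 1170 to 2143 counts over all 1448 receptor genes, so single receptors cannot be compared among them.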
